A study of Mus musculus with 9 samples.

Results

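Transcripts of 10 mouse genes of the IL-1, TNF and acute inflammatory response were followed in day 10 dendritic cells, which take up antigen and present its peptides to T cells on class II MHC molecules. The genes are Il1a, Il1b, Il1rn, Tnf, Tnfaip2, Tnfaip3, Il6, Ptx3, Cxcl1 and Cxcl2. They were selected on gene function with the measured values of these same arrays already known, so their levels and differences are given as a description. All probe sets carrying one of these symbols were taken, which gave 11 of the 12488 probe sets of one array design and 11 of the 12654 of the other, for 10 of the 8387 genes that have a probe set with a single symbol on either design. Each design covers all 10 genes, Cxcl1 with a pair of probe sets, and 10 of the probe sets stand on both designs.

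RNA was hybridised to 9 Affymetrix arrays, 3 from cells labelled CIITA-/-, 3 from cells labelled IAb-/- and 3 from cells of B6 mice, the wild type. CIITA is the master activator of MHC class II transcription, and I-Ab is the class II molecule whose beta chain is encoded by H2-Ab1. The titles number the arrays of each group as experiments 1 to 3. Experiment 1 used the design of 12654 probe sets, with 1 array per group, and experiments 2 and 3 used the design of 12488, with 2 arrays per group. The title of 1 CIITA-/- array holds no experiment number, and it was read as experiment 2, the number left in its group, so every experiment 2 difference that involves CIITA-/- rests on that reading. The labels name no age, sex, culture medium or stimulus, do not give the strain background or the allele of either mutant, and do not say whether arrays came from separate mice or cultures. The p-values therefore measure only how far these arrays differ among themselves, a spread that may be technical, and the number of arrays limits every value.

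The targeted genes check the labels in part. In experiments 2 and 3, H2-Ab1 read 614.8 and 111.7 on CIITA-/- arrays, 16070.2 and 9621.3 on arrays labelled IAb-/-, and 17261.0 and 21347.8 on the B6 arrays. Its signal was thus still present on the arrays labelled IAb-/-, and whether the probes lie in a deleted part of the gene is not known here, so each direction below that involves IAb-/- rests on the label. The Ciita probe set lay within noise on all 9 arrays. It read 1600.7 and 1638.9 on the arrays labelled CIITA-/-, 398.4 and 644.0 on those labelled IAb-/- and 623.2 and 933.0 on B6 arrays, so it does not check that label either. The near loss of H2-Ab1 on the CIITA-/- arrays is a measured difference between those arrays and the rest. All 13 dendritic cell markers listed were above noise on at least 2 of the 6 arrays of experiments 2 and 3.

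IL-1α and IL-1β are alarm cytokines that bind a shared receptor, and the receptor antagonist encoded by Il1rn occupies that receptor without signalling. TNF acts through its own receptors, and both routes lead to NF-κB, the transcription factor that switches on many inflammatory genes, among them cytokines, chemokines that call in neutrophils, and inhibitors that end the response. Dendritic cells make these products when microbial or damage signals reach them. Il1a and Il1b lie beside each other on chromosome 2, with 0 protein-coding genes between them, and Cxcl1 and Cxcl2 do so on chromosome 5. Il1rn also lies on chromosome 2 and Il6 on chromosome 5, Ptx3 on chromosome 3, Tnfaip3 on 10, Tnfaip2 on 12 and Tnf on 17.

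The letters just upstream of the genes show which of them carry a recognisable NF-κB motif. RefSeq promoters of build GRCm38.p6, each 300 bases long with 250 before and 50 after the gene's start, were searched on both strands for the κB consensus, and matches may overlap. All 10 genes had a promoter in that table, 13 in all since some genes have several starts. A match was found in at least 1 promoter of 6 of the 10 genes, against 9.55% of all 27025 genes, and in 6 of the 13 promoters, against 8.46% of 32851. The 6 genes are Cxcl1, Cxcl2, Il6, Tnfaip2, Tnfaip3 and Ptx3; none of the windows of Il1a, Il1b, Il1rn and Tnf held one, which says only that this consensus is not in those windows. The 150 bases before the start are shown for both neighbouring chemokine genes, for Il6, and for Tnfaip2 and Il1a, which had the widest fitted IAb-/- to B6 differences in experiments 2 and 3 among genes that rose above noise. In experiment 1 Il1a did not hold that place, at 0.15 beside 0.68 for Cxcl2, and Tnfaip2 gave no reading. The bases run 5′ to 3′ on the gene's strand, with κB matches in capitals.
Cxcl1, chr5:90891095-90891244, plus strand: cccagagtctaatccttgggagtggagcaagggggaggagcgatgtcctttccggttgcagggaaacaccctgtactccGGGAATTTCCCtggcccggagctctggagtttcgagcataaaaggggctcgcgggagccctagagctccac
Cxcl2, chr5:90903749-90903898, plus strand: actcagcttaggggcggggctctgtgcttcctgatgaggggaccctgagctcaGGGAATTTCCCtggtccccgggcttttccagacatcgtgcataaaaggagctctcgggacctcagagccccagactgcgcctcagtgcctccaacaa
Il6, chr5:30012964-30013113, plus strand: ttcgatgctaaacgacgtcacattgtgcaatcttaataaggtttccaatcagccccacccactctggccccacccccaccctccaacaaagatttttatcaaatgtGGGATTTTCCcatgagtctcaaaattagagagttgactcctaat
Tnfaip2, chr12:111442511-111442660, plus strand: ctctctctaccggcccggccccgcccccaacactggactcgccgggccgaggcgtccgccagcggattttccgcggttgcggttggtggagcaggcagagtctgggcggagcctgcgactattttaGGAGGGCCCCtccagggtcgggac
Il1a, chr2:129309973-129310122, minus strand: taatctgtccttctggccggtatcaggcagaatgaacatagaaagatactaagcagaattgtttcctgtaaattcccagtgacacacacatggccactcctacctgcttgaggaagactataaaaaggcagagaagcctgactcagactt
In Cxcl1 and Cxcl2 the capitals are the same letters, matched on both strands, starting at -71 and -97 from the start. In Il6 the match starts at -44 and in Tnfaip2 at -24, and the Il1a window has no capitals. A match is a description of the sequence, and binding was not measured.

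Levels are deposited intensities in arbitrary units, which fall below 0 for transcripts near background. A noise limit, chosen after the values were seen, was put where 95% of the negative values are smaller in size, 1701 for experiments 2 and 3 and 2203 for experiment 1, and a value under it is called within noise. Log2 differences were taken after values under a floor (123.5 and 93.2, the 30th percentile of each table) were raised to it, which can understate a change where a value lies under the floor. Values between the floor and the noise limit were kept. A log2 difference can therefore be wide with every array within noise, as for Ptx3. Levels of different probe sets, and levels from the 2 designs, are on separate scales, so no result compares them. Signal was used across probe sets only to pick which listed genes are named and to sum marker lists within an array. In RNA from whole cultures, fewer cells of a type and less RNA per cell cannot be told apart.

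Of the IL-1 ligands, Il1a was near the noise limit and Il1b was within noise throughout. Il1a, which encodes IL-1α, read 1443.2 and 1621.4 on the CIITA-/- arrays of experiments 2 and 3, 2178.5 and 2215.6 on the IAb-/- arrays, and 1325.3 and 907.2 on the B6 arrays. The IAb-/- arrays were the highest and the only ones of these 6 above noise. The CIITA-/- and B6 arrays all lay within noise, so no order between them is read. The means were 1532.3 ± 126.0 in CIITA-/-, 2197.0 ± 26.2 in IAb-/- and 1116.2 ± 295.6 in B6 (SD, n = 2 each). Both other groups lay within noise, and the IAb-/- mean was 1.29-fold the limit they stayed under. The fitted log2 difference of IAb-/- against B6 was 1.00 (SE 0.23). In experiment 1 Il1a read 2129.3 on the CIITA-/- array, 2762.2 on the IAb-/- array and 2490.6 on the B6 array. There the IAb-/- array was again the highest, by a log2 difference of 0.15 against B6, and the CIITA-/- array lay within noise.

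Il1b, the gene of IL-1β, gave no reading above noise on any of the 9 arrays. It read 34.8 and -423.8 in CIITA-/-, 281.4 and -176.5 in IAb-/- and 385.4 and -208.4 in B6 cells of experiments 2 and 3. In experiment 1 the values were 708.7 in CIITA-/-, 1197.5 in IAb-/- and 1561.7 in B6. Within noise, no order of the groups can be read from them.

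Il1rn, whose product blocks the IL-1 receptor, was above noise on all 9 arrays. It read 3025.1 and 2250.1 in CIITA-/-, 3971.2 and 3082.1 in IAb-/- and 2433.1 and 2776.7 in B6 cells of experiments 2 and 3. The IAb-/- arrays were the highest pair and did not overlap the others, whereas CIITA-/- and B6 overlapped. The means were 2637.6 ± 548.0 in CIITA-/-, 3526.6 ± 628.7 in IAb-/- and 2604.9 ± 243.0 in B6 (SD, n = 2 each), and the fitted log2 difference of IAb-/- against B6 was 0.43 (SE 0.23). That gap was not seen in experiment 1, where Il1rn read 7063.1 in CIITA-/-, 7633.0 in IAb-/- and 7782.5 in B6, a log2 difference of -0.03 for IAb-/- against B6.

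Tnf, the gene of TNF itself, read below 0 on all 9 arrays. The range in experiments 2 and 3 was -497.1 to -387.2 in CIITA-/-, -350.4 to -318.0 in IAb-/- and -1488.6 to -365.4 in B6 cells, and the probe set was left out of the fit. In experiment 1 it read -609.0 in CIITA-/-, -1912.6 in IAb-/- and -1976.6 in B6 cells. No difference in Tnf could be read with this probe set.

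Tnfaip2, a gene named for its induction by TNF in endothelial cells, had the smallest spread around the fit of the 10 probe sets tested (SD 0.14 on the log2 scale). Its probe set of experiments 2 and 3 read 1150.2 and 1445.4 in CIITA-/-, 2205.6 and 2351.7 in IAb-/- and 1182.2 and 1155.5 in B6 cells. The IAb-/- arrays stood apart above noise, while CIITA-/- and B6 arrays overlapped within noise. The means were 1297.8 ± 208.7 in CIITA-/-, 2278.6 ± 103.3 in IAb-/- and 1168.8 ± 18.9 in B6 (SD, n = 2 each). The IAb-/- mean was 1.34-fold the limit that both other groups stayed under. The fitted log2 difference was 0.96 for IAb-/- against B6 and -0.82 for CIITA-/- against IAb-/- (SE 0.17 each). Experiment 1 carried another probe set for the gene, which read 4.0 in CIITA-/-, -134.9 in IAb-/- and -434.5 in B6 cells, so that experiment gives no reading of Tnfaip2.

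Tnfaip3 encodes A20, a ubiquitin-editing enzyme that restrains NF-κB. It read 1432.0 and 2009.9 in CIITA-/-, 1718.0 and 2314.3 in IAb-/- and 1855.2 and 1885.0 in B6 cells of experiments 2 and 3. All groups overlapped, with fitted log2 differences of -0.14 for CIITA-/- against B6 and 0.09 for IAb-/- against B6 (SE 0.25 each). In experiment 1 it was within noise, at 1640.7 in CIITA-/-, 1092.4 in IAb-/- and 1277.9 in B6.

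**Figure D1:**
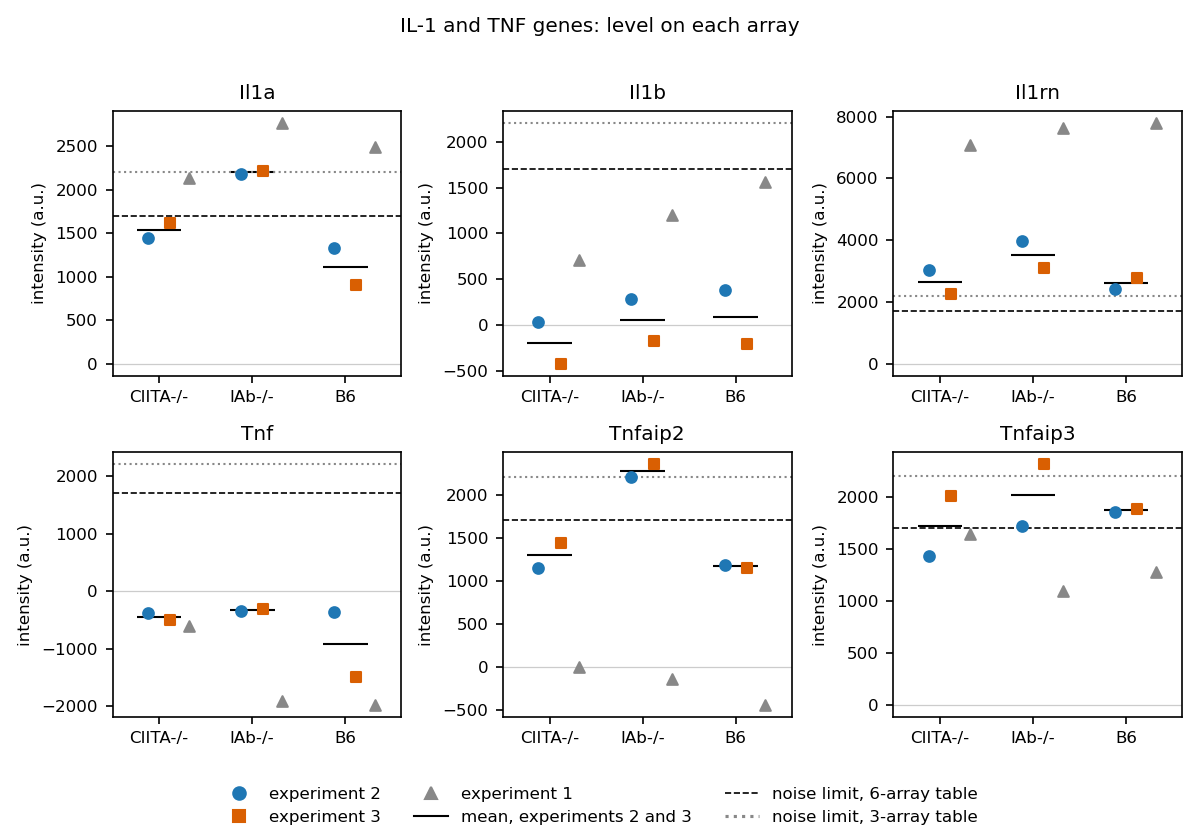
Intensity in arbitrary units of the IL-1 and TNF genes on each array of CIITA-/-, IAb-/- and B6 cells. Points are arrays of experiments 1, 2 and 3, black bars are means of experiments 2 and 3, and dashed and dotted lines are the noise limits of 1701 and 2203. Il1a and Tnfaip2 rise above the dashed line on the IAb-/- arrays, and Tnf lies below 0 on every array.

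Il6, the gene of the cytokine that drives the acute phase response, was above noise on all 6 arrays of experiments 2 and 3. It read 2321.5 and 2729.1 in CIITA-/-, 2873.8 and 4075.2 in IAb-/- and 2390.7 and 3361.8 in B6 cells. IAb-/- was the highest within each of experiments 2 and 3, but the IAb-/- and B6 arrays overlapped across experiments. The means were 2525.3 ± 288.2 in CIITA-/-, 3474.5 ± 849.5 in IAb-/- and 2876.2 ± 686.7 in B6 (SD, n = 2 each). Within experiments the log2 difference of IAb-/- against B6 was 0.46 in experiment 1, 0.27 in experiment 2 and 0.28 in experiment 3. Experiment 1 read 2468.5 in CIITA-/-, 2442.3 in IAb-/- and 1775.5 in B6, and only the B6 array lay within noise there.

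Ptx3 encodes the long pentraxin PTX3, a soluble pattern-recognition molecule made in response to IL-1 and TNF. It was within noise on all 9 arrays, at 211.9 and 547.5 in CIITA-/-, 652.2 and 545.5 in IAb-/- and -21.8 and 89.8 in B6 cells of experiments 2 and 3. Both B6 values fell under the floor, which sets the fitted log2 difference of 2.27 (SE 0.47) for IAb-/- against B6 and of 1.46 (SE 0.47) for CIITA-/- against B6. In experiment 1 the B6 array was instead the highest, with 131.6 in CIITA-/-, 534.0 in IAb-/- and 1508.3 in B6.

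The neutrophil chemokines Cxcl1 and Cxcl2, whose products act on the receptor encoded by Cxcr2, did not share a pattern. The first Cxcl1 probe set, the lower-numbered of the pair, read 666.4 and 1451.4 in CIITA-/-, 1937.3 and 2332.7 in IAb-/- and 1454.4 and 1387.4 in B6 cells. The IAb-/- arrays were the highest and the only ones above noise. The means were 1058.9 ± 555.1 in CIITA-/-, 2135.0 ± 279.6 in IAb-/- and 1420.9 ± 47.4 in B6 (SD, n = 2 each). The IAb-/- mean was 1.26-fold the limit that both other groups stayed under. In experiment 1 all 3 arrays lay within noise, with 312.2 in CIITA-/-, 818.7 in IAb-/- and 357.1 in B6.

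The second Cxcl1 probe set measures the same transcript and is no replicate of the first. It read 122.9 and 646.8 in CIITA-/-, 847.2 and 2041.2 in IAb-/- and 740.7 and 1556.5 in B6 cells, above noise on 1 array, the IAb-/- array of experiment 3. IAb-/- and B6 overlapped, and with every CIITA-/- and B6 value within noise no order between those groups is read. In experiment 1 it read 810.7 in CIITA-/-, 1322.5 in IAb-/- and 602.6 in B6.

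Cxcl2 was above noise on all 9 arrays. It read 3888.8 and 2801.5 in CIITA-/-, 3787.2 and 3334.4 in IAb-/- and 4791.7 and 2400.8 in B6 cells of experiments 2 and 3. The B6 arrays held both the highest and the lowest value, so the groups overlapped fully. The means were 3345.2 ± 768.8 in CIITA-/-, 3560.8 ± 320.2 in IAb-/- and 3596.2 ± 1690.6 in B6 (SD, n = 2 each), and the fitted log2 difference of IAb-/- against B6 was 0.07 (SE 0.39). In experiment 1 it read 3649.6 in CIITA-/-, 4535.1 in IAb-/- and 2837.3 in B6.

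**Figure D2:**
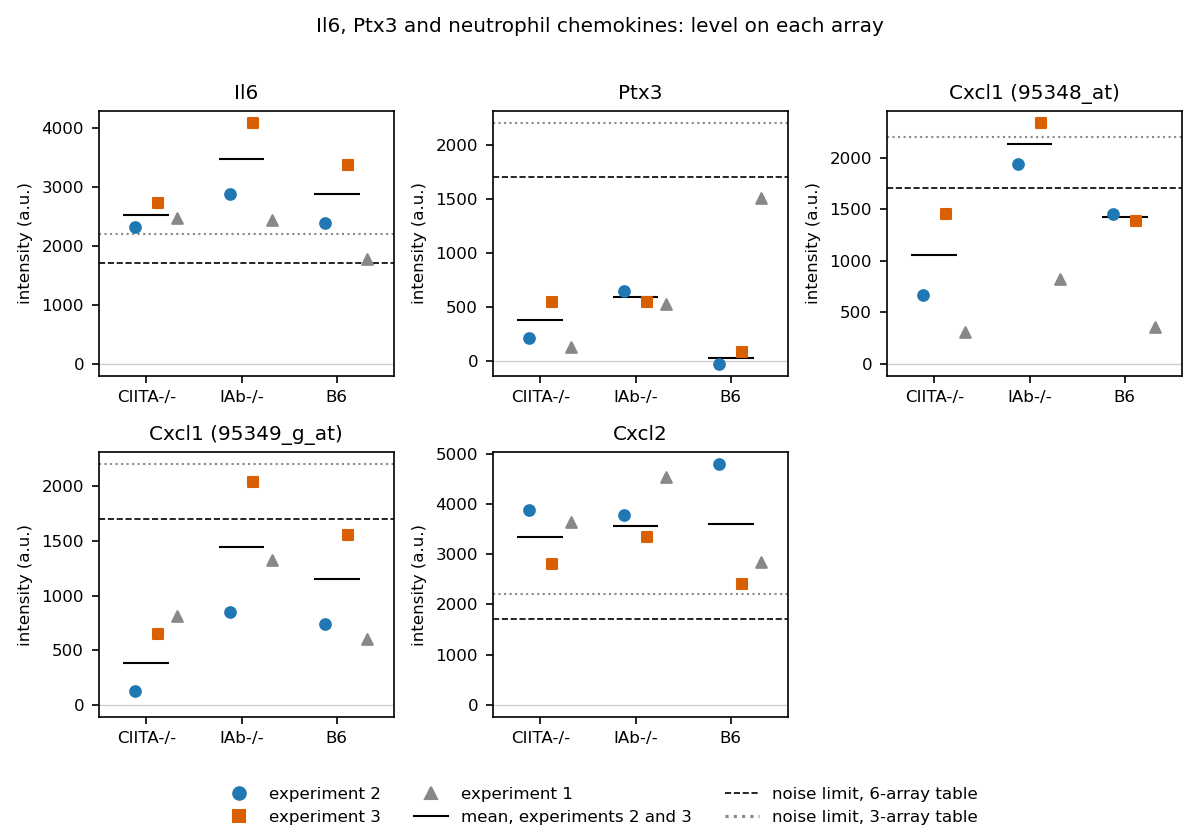
Intensity in arbitrary units of Il6, Ptx3, both Cxcl1 probe sets and Cxcl2 on each array of CIITA-/-, IAb-/- and B6 cells, drawn as for the IL-1 and TNF genes. Il6 and Cxcl2 lie above the dashed noise limit of 1701 in experiments 2 and 3, Ptx3 lies within noise, and the first Cxcl1 probe set passes it on the IAb-/- arrays alone.

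The comparison of IAb-/- with B6 asks, by the label alone, what the loss of the class II molecule goes with. One limma model was fitted to the 6 arrays of experiments 2 and 3. It covered all 9312 probe sets above the floor on at least 2 arrays. Of the 11 probe sets, 10 passed that filter and Tnf did not. Of these, 0 reached a limma p under 0.05 after Benjamini-Hochberg adjustment, the threshold for a call, their adjusted p-values running between 0.566 and 1, beside 1 call over all probe sets (0.0107%). At an unadjusted p under 0.05 were 3, namely Il1a, Ptx3 and Tnfaip2, beside 401 of the 9312 (4.31%). Of the 10 fitted differences 9 were above 0, with a median of 0.36, against 51% above 0 and a median of 0.005 over all 9312. The IAb-/- arrays lay above both B6 arrays, with no overlap, for 5 of the 10, namely Tnfaip2, Ptx3, Il1rn, Il1a and the first Cxcl1 probe set, beside 16.5% of all probe sets. Of the 9 tested probe sets present on both designs, 4 were higher in all 3 experiments (Il1a, Il6 and both of Cxcl1, the last within noise in experiment 1), beside 12.7% of 7610. These shares describe genes chosen on the same values and support nothing by themselves.

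The size of these differences was uneven between experiments. Over the 11 probe sets the median log2 difference of IAb-/- against B6 was 0 in experiment 1, 0.27 in experiment 2 and 0.39 in experiment 3. Il1a had log2 differences of 0.15, 0.72 and 1.29 in experiments 1, 2 and 3. The first Cxcl1 probe set had 1.20, 0.41 and 0.75, and Cxcl2 had 0.68, -0.34 and 0.47. Ptx3 had -1.50, 2.40 and 2.14, so its experiment 1 array pair ran against the others.

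The comparison of CIITA-/- with B6 asks the same of the class II activator, again by the label. In it limma called 0 of the 10 (adjusted p between 0.798 and 1), beside 9 of 9312 (0.0966%). At an unadjusted p under 0.05 was Ptx3 alone, beside 546 probe sets (5.86%). The fitted differences fell on both sides of 0, with 4 of 10 above it and a median of -0.09. No probe set of the genes was higher or lower in all 3 experiments, beside 13.6% higher and 12.6% lower over the 7610. On the 6 arrays CIITA-/- lay above B6 without overlap for 2 (Il1a and Ptx3), beside 21% of all, and below B6 for 1 (the second Cxcl1 probe set), beside 17.8%. All values of these 3 probe sets in both groups lay within noise. IAb-/- against B6 and CIITA-/- against B6 share the B6 arrays.

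For CIITA-/- against IAb-/-, which shares the IAb-/- arrays with the first comparison, limma called 0 of the 10 (adjusted p between 0.509 and 1), beside 2 of 9312 (0.0215%). At an unadjusted p under 0.05 were the first Cxcl1 probe set and Tnfaip2, beside 423 probe sets (4.54%). All 10 fitted differences were below 0, with a median of -0.56, while 50.7% of all probe sets were above 0. Il1b and Ptx3 are among the 10, though both were within noise on every array. In experiment 1, 2 of the 11 probe sets were above 0 (Tnfaip3 at 0.59, within noise, and Il6 at 0.02), 7 below and 2 at 0. The CIITA-/- arrays lay below the IAb-/- arrays without overlap for 6 of the 10, namely Il6, Tnfaip2, Il1rn, Il1a and both of Cxcl1, beside 12.6% of all probe sets. In all 3 experiments CIITA-/- was lower for 4 of 9 (Il1rn, Il1a and both of Cxcl1, the last within noise in experiment 1), beside 11.9%. As in the first comparison, these shares describe genes chosen on the same values and support nothing by themselves. The first Cxcl1 probe set had log2 differences of -1.39, -1.54 and -0.68 in experiments 1, 2 and 3, and Il1a had -0.38, -0.59 and -0.45.

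**Figure D3:**
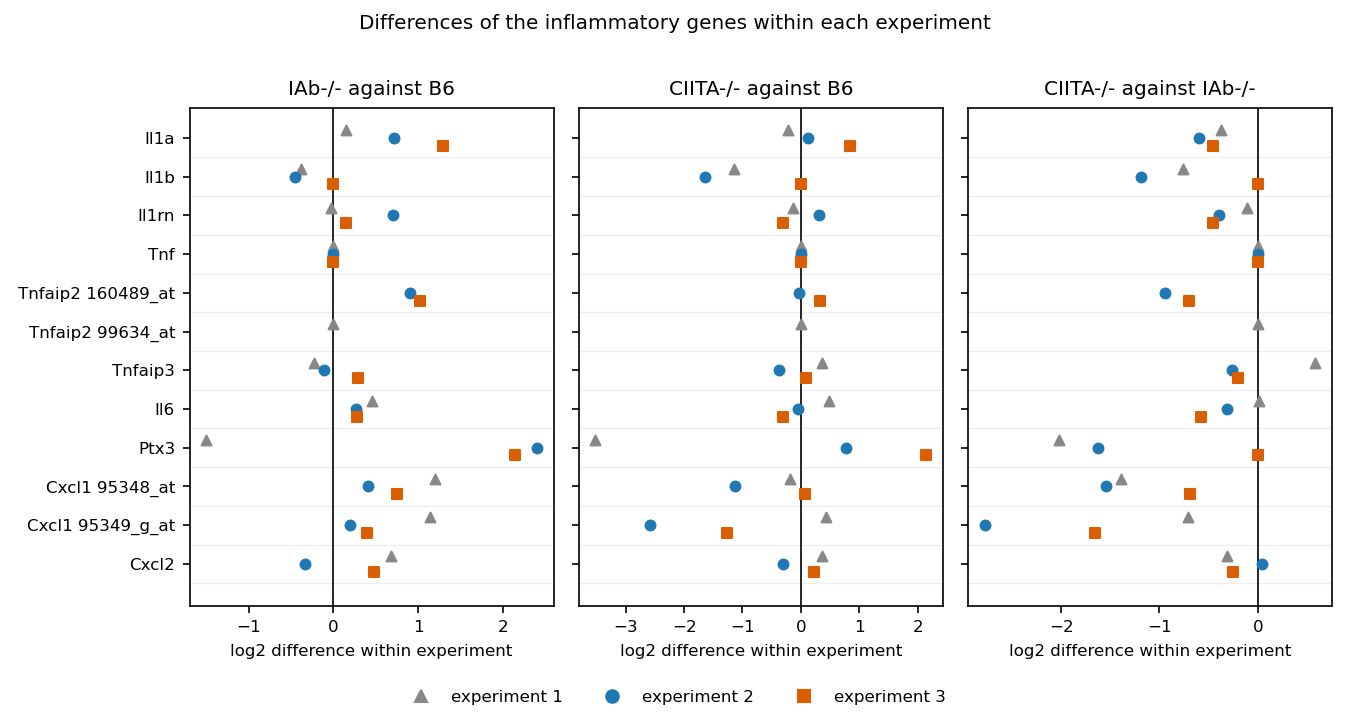
Log2 difference of each probe set within experiments 1, 2 and 3, after flooring, for IAb-/- against B6, CIITA-/- against B6 and CIITA-/- against IAb-/-. Il1a and both Cxcl1 probe sets lie right of 0 in all 3 experiments in the first panel and left of 0 in the last, and Ptx3 in experiment 1 lies at -1.50 in the first.

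**Figure D4:**
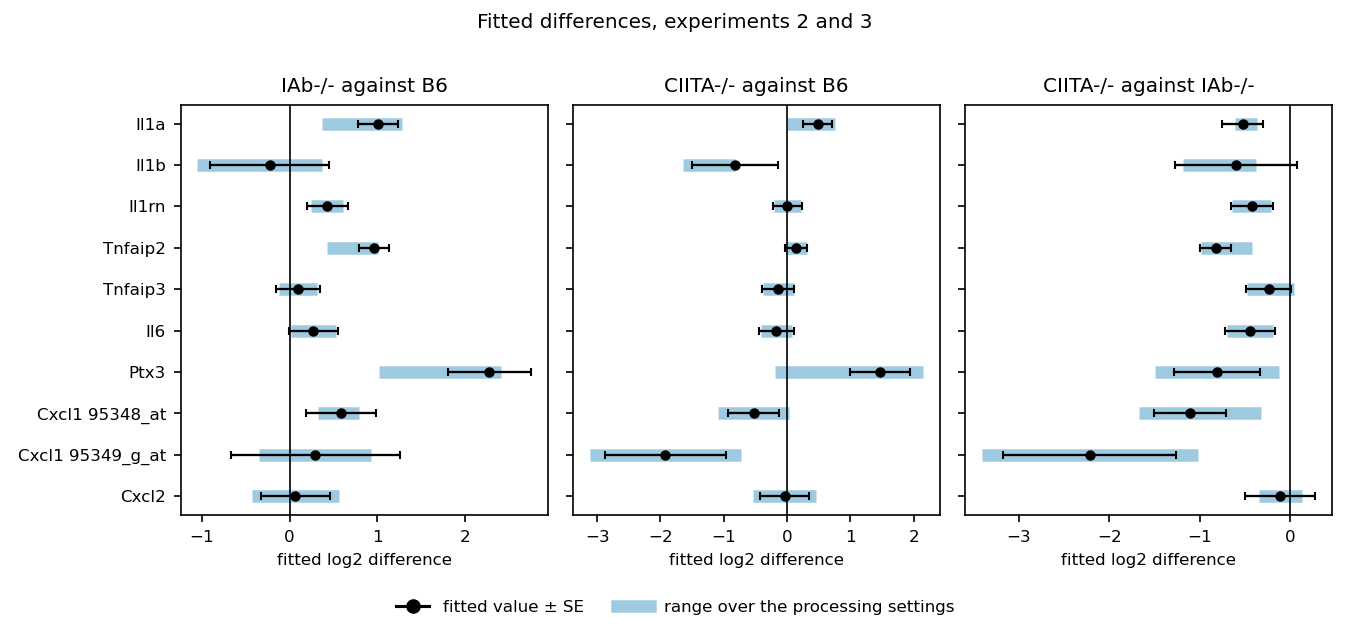
Fitted log2 differences from experiments 2 and 3 (points, bars are SE, 2 arrays per group) with the range over the processing settings (blue). The range for IAb-/- against B6 spans 0 for Cxcl2, Tnfaip3, Il1b and the second Cxcl1 probe set. It stays above 0 for the others, from 0.02 for Il6, 0.25 for Il1rn and 1.02 for Ptx3, which lay within noise. The lower ends for Il1a (0.37), Tnfaip2 (0.42) and the first Cxcl1 probe set (0.32) come from the floor at the noise limit. That floor raises every B6 value of these probe sets to 1701, with both IAb-/- values above it. Their sign there was fixed beforehand and is no test. Tnfaip2 has no value in the replicate block over all arrays.

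A technical measure differed most between the IAb-/- arrays themselves. The bacterial spike-in controls, 9 probe sets of control transcripts added to the samples, had levels relative to the 6 arrays of 1.06 and 1.03 on the CIITA-/- arrays, 1.36 and 0.753 on the IAb-/- arrays, and 0.946 and 0.947 on the B6 arrays, so the IAb-/- arrays were the highest and the lowest. With each array rescaled to the spike-ins, Tnfaip2 read 1624.2 and 3121.4 in IAb-/- against 1249.8 and 1220.2 in B6 cells. Il1a read 1604.3 and 2940.8 in IAb-/- against 1401.0 and 958.0 in B6 cells. The experiment 2 IAb-/- value of each then lay under the limit of 1701 on which the ratios above rest. So did that of the first Cxcl1 probe set, at 1426.6, which was also under both B6 values of 1537.5 and 1465.1. Of the 10 probe sets, 1 had an unadjusted limma p under 0.05 for IAb-/- against B6, in place of 3. Neither Tnfaip2 nor Il1a overlapped between IAb-/- and B6 after rescaling, nor did Ptx3, while Il1rn and the first Cxcl1 probe set then did. The fitted log2 differences of Cxcl2 and Tnfaip3 were -0.03 and -0.0033 in that comparison. For CIITA-/- against IAb-/-, Il6 and the second Cxcl1 probe set then overlapped. There 1 of the 10 had an unadjusted limma p under 0.05, in place of 2. For CIITA-/- against B6, Il1a then overlapped, and Tnfaip3 and the first Cxcl1 probe set lay lower in CIITA-/- without overlap. All rescaled values of that Cxcl1 probe set in both groups lay under 1701, so no order is read from it. The share of all probe sets without overlap was not counted after rescaling, so the overlaps given for rescaled arrays are a description only.

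Markers of other cells were read beside these values. The 11 macrophage markers summed to 44088 and 48097 in CIITA-/-, 54707 and 43430 in IAb-/- and 39849 and 35182 in B6 cells of experiments 2 and 3. Both IAb-/- sums and both CIITA-/- sums lay above both B6 sums. Lyz2, the brightest of the list on these 6 arrays, weighs most in the sums. It read 17724.8 and 22732.2 in CIITA-/-, 27047.4 and 18615.6 in IAb-/- and 15190.7 and 14153.6 in B6 cells. Of the 10 tested macrophage markers, 8 were above 0 and 2 below for IAb-/- against B6, and 7 above and 3 below for CIITA-/- against B6. In experiment 1 the order of the sums differed, with 111889 in CIITA-/-, 105747 in IAb-/- and 114976 in B6. On the 6 arrays of experiments 2 and 3, 5 markers of that list stayed within noise, Mrc1, C1qa, C1qb, Adgre1 and Marco, whereas in experiment 1 Mrc1 was above it on all 3 arrays and Adgre1 on the IAb-/- and B6 arrays. The 14 neutrophil markers summed to 15527 and 13758 in CIITA-/-, 16162 and 14062 in IAb-/- and 13284 and 11516 in B6 cells, and 9 of them, among them S100a8, S100a9, Mpo, Elane and Ngp, stayed within noise on these 6 arrays. For IAb-/- against B6, 2 of the 10 tested neutrophil markers were above 0 and 8 below, with a median log2 difference of -0.11. Without Lcn2 the sums of experiments 2 and 3 were 12932 and 10802 in CIITA-/-, 9587 and 9336 in IAb-/- and 11314 and 9813 in B6 cells. The IAb-/- sums then lay below both B6 sums. In experiment 1 the sums of all 14 were 19610 in CIITA-/-, 19731 in IAb-/- and 13661 in B6. Without Lcn2 they were 16693 in CIITA-/-, 16808 in IAb-/- and 11326 in B6, so there the IAb-/- sum lay above B6. The part of either cell type in the levels of the inflammatory genes was not tested. In experiments 2 and 3, none of the 8 mast cell and 5 T cell markers measured rose above noise, 1 of 8 fibroblast markers did (Col1a2), and 3 of 4 B cell markers did on at least 2 arrays.

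The receptors and signalling partners of these cytokines were counted as lists, and limma called no gene of any list in any of the 3 comparisons. Their levels are from experiments 2 and 3 unless another is named. Of the IL-1 pathway, 10 of 14 genes were measured and tested. For IAb-/- against B6, 6 were above and 4 below 0, with a median log2 difference of 0.02, and for CIITA-/- against B6 the median was -0.12. The genes named from it are Traf6, the ubiquitin ligase that relays the receptor's signal, Irak1, the kinase upstream of it, and Casp1, the protease that matures IL-1β. Casp1 read 3241.9 and 3618.7 in CIITA-/-, 2969.1 and 4272.7 in IAb-/- and 3551.5 and 3804.8 in B6 cells. Traf6 read 4188.6 and 3830.2 in CIITA-/-, 4002.2 and 4080.0 in IAb-/- and 4734.4 and 4803.4 in B6 cells, with both B6 arrays highest in experiments 2 and 3. In experiment 1 it read 4553.1 in CIITA-/-, 4151.5 in IAb-/- and 4180.3 in B6 cells, and B6 was not the highest. Irak1 read 4036.9 and 2914.4 in CIITA-/-, 3750.2 and 3684.2 in IAb-/- and 3788.2 and 3996.5 in B6 cells.

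Of the TNF pathway, 12 of 13 genes were tested, 5 above and 7 below 0 for IAb-/- against B6, with a median of -0.16, and the median for CIITA-/- against B6 was -0.15. Tnfrsf1b, the second TNF receptor, read 6510.1 and 7456.8 in CIITA-/-, 8031.9 and 8628.3 in IAb-/- and 7161.8 and 8364.4 in B6 cells, and the IAb-/- and B6 values overlapped. The receptor adaptor Traf2 read 8030.5 and 6122.6 in CIITA-/-, 5883.1 and 5307.5 in IAb-/- and 8573.6 and 7410.9 in B6 cells. The adaptor Traf1 read 7115.8 and 6410.6 in CIITA-/-, 7325.0 and 7123.5 in IAb-/- and 8195.6 and 9232.2 in B6 cells. In experiments 2 and 3 both adaptors read lower on the IAb-/- arrays than on either B6 array, with a log2 difference of -0.51 (SE 0.20) for Traf2, which did not pass the test. Traf1 read lower than both B6 arrays on the CIITA-/- arrays too. The share of all probe sets lower in IAb-/- without overlap was not counted, for these adaptors or for Traf6 above. Experiment 1 went the other way, with Traf1 at 8515.7 in IAb-/- against 7169.1 in B6 and Traf2 at 5187.5 in IAb-/- against 4701.0 in B6 cells.

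All 10 genes of the IL-6 pathway were tested, 5 above and 5 below 0 for IAb-/- against B6 with a median of -0.01, and a median of 0.04 for CIITA-/- against B6. Socs3, the feedback inhibitor of IL-6 signalling, read 12304.4 and 7740.9 in CIITA-/-, 11088.5 and 9331.4 in IAb-/- and 14142.9 and 4539.4 in B6 cells. Its B6 arrays held both extremes, as they did for Cxcl2. The kinase gene Jak2 read 17513.1 and 17776.7 in CIITA-/-, 16474.4 and 17764.9 in IAb-/- and 18785.4 and 17809.2 in B6 cells. The inhibitor gene Socs1 read 12619.8 and 9701.1 in CIITA-/-, 11170.8 and 10253.7 in IAb-/- and 13012.9 and 9763.1 in B6 cells.

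Among the other neutrophil chemokines, their receptor and the colony-stimulating factors, 6 of 9 genes were measured and 4 tested. For IAb-/- against B6, 1 was above 0 (Csf1) and 3 below, with a median of -0.26, and the median for CIITA-/- against B6 was -0.11. Cxcr2, the receptor for both chemokines, read 5179.6 and 3311.3 in CIITA-/-, 4114.1 and 2462.5 in IAb-/- and 4212.3 and 3320.7 in B6 cells. Csf1, a growth factor of macrophages, read 10887.1 and 16307.2 in CIITA-/-, 15459.5 and 16874.3 in IAb-/- and 12461.7 and 15101.3 in B6 cells. Both IAb-/- arrays lay above both B6 arrays in these experiments, as for 16.5% of all tested probe sets. Csf3, the gene of the granulocyte growth factor, read 1696.3 and 1701.0 in CIITA-/-, 1773.0 and 1415.6 in IAb-/- and 1272.9 and 2897.2 in B6 cells, near the noise limit.

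Of the other acute inflammatory genes, 18 of 20 were measured and 14 tested, 7 above and 6 below 0 for IAb-/- against B6, with a median of 0.06, and the median for CIITA-/- against B6 was 0.05. Nfkbia, which encodes the NF-κB inhibitor IκBα and is itself an NF-κB target, read 52759.1 and 48162.2 in CIITA-/-, 62765.3 and 43328.6 in IAb-/- and 54529.6 and 52639.0 in B6 cells. Icam1, an adhesion molecule induced by TNF, read 13830.9 and 14911.9 in CIITA-/-, 14792.5 and 15916.7 in IAb-/- and 15345.1 and 18322.8 in B6 cells. Dusp1, a phosphatase gene that restrains MAP kinases, read 12421.0 and 11169.6 in CIITA-/-, 11478.3 and 11659.9 in IAb-/- and 13518.5 and 12196.0 in B6 cells. The IAb-/- and B6 arrays overlapped for Nfkbia and Icam1, and the IAb-/- arrays lay below B6 for Dusp1. The share of all probe sets that did so was not counted. The lowest p of that list for IAb-/- against B6 belonged to Lcn2, named here after its values were seen (limma, log2 difference 1.61, SE 0.22, adjusted p = 0.415). In experiments 2 and 3 it read 2595.2 and 2955.3 in CIITA-/-, 6575.1 and 4725.7 in IAb-/- and 1970.2 and 1703.5 in B6 cells. The CIITA-/- arrays thus also lay above both B6 arrays. Over all tested probe sets, 16.5% were higher without overlap in IAb-/- than in B6, and 21% in CIITA-/- than in B6. In experiment 1 Lcn2 read 2917.6 in CIITA-/-, 2923.3 in IAb-/- and 2335.4 in B6 cells, a log2 difference of 0.32 for IAb-/- against B6.

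**Figure D5:**
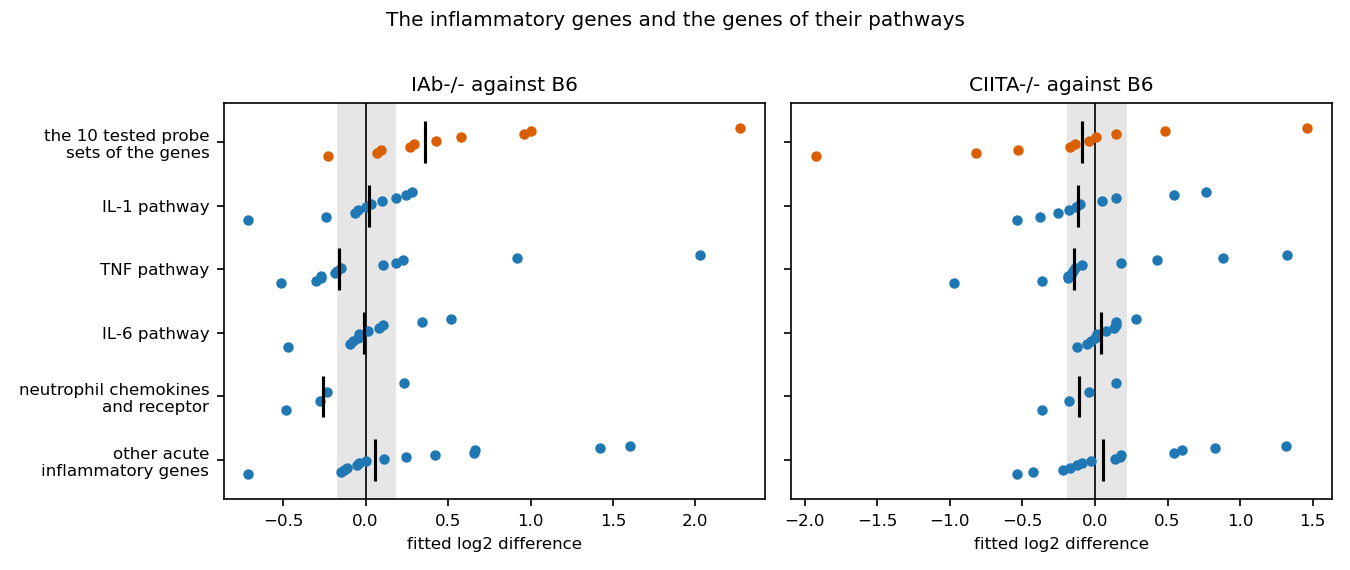
Fitted log2 differences of the 10 tested probe sets (orange) and of the genes of 5 pathway lists (blue) for IAb-/- against B6 and CIITA-/- against B6. Each dot is a probe set, black ticks are medians and the grey band holds the middle range of all 9312 probe sets, between the quartiles. The median of the 10 lies at 0.36 in the first panel, and those of the 5 lists lie between -0.26 and 0.06.

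Genes with the most similar pattern were sought with the mean floored log2 value of the 8 probe sets above noise on at least 1 of the 6 arrays. That mean was 10.268 and 10.747 in CIITA-/-, 11.115 and 11.37 in IAb-/- and 10.772 and 10.788 in B6 cells. Among 3946 other probe sets, 17 had a Pearson correlation above 0.9 with it over these 6 arrays, and the highest were Ddx3x, an RNA helicase gene (0.981), Atp6v1a, a proton pump subunit gene (0.97), and Tnpo3, a nuclear import receptor gene (0.961). Ddx3x read 3178.0 and 3525.4 in CIITA-/-, 4019.0 and 4202.3 in IAb-/- and 3472.6 and 3541.1 in B6 cells. In experiment 1 its highest value was in B6, with 3149.4 in CIITA-/-, 3479.0 in IAb-/- and 4663.6 in B6. Of the 8 probe sets, 4 (Il1a, Tnfaip2 and both of Cxcl1) passed the noise filter through IAb-/- arrays alone, so the filter itself in part fixes a profile that is high in IAb-/-. With that, and with 6 arrays that share their scaling, these correlations are a description and support nothing.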

How the data were processed

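The authors deposited linear intensity values for every probe set, in a table of 6 arrays (experiments 2 and 3) and a table of 3 (experiment 1). The sources used here do not give the algorithm behind them. Arrays share a trimmed mean (2502.2 to 2502.6 and 2500.0), and 21.0% to 26.4% of an array's values lie below 0. Gene symbols came from the platform annotation. Probe sets with several symbols were not named.

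Values were floored at the 30th percentile of their table and taken to log2. Probe sets above the floor on at least 2 of the 6 arrays were tested (9312 of 12422 without controls) in limma 3.58.1 (R 4.3.3; functions lmFit, then eBayes), all 3 groups in one model with 3 residual degrees of freedom, no block, and Benjamini-Hochberg adjustment over all of them. The model was tested on simulated data. Experiment 1, on another design, was kept out of the model and its differences were taken within it.

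The genes and all lists were chosen with earlier results of these data known. Every probe set of the 10 genes is named. Of each pathway list the 3 brightest genes above noise on at least 2 arrays are named, and of similar patterns the 3 highest correlations. Marker lists covered dendritic cells, macrophages, neutrophils, mast cells, fibroblasts, T cells and B cells.

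Arrays of a same experiment number were checked for pairing. Their deviations from group means correlated at 0.215 (CIITA-/- with IAb-/-), 0.079 (IAb-/- with B6) and 0.048 (CIITA-/- with B6) over 9312 probe sets. Alternatives were other floors, quantile normalization, no filter, a replicate block, leaving out arrays and, added after seeing the data, spike-in scaling.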

Additional observations from a re-analysis of the deposited data

How the results depend on the processing

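None of the inflammatory gene probe sets was called in any comparison under any setting run. Counts over all probe sets, 1 for IAb-/- against B6, 9 for CIITA-/- against B6 and 2 for CIITA-/- against IAb-/-, moved with nearly every choice. In the same order they were 0, 3 and 4 with the floor at the noise limit, 5, 14 and 7 without the filter on dim probe sets, and 0, 0 and 0 with experiment number as a replicate block. At an unadjusted p under 0.05 the replicate block gave 491, 606 and 492. The replicate block over all 9 arrays gave 0 for IAb-/- against B6 and 4 for CIITA-/- against B6. Quantile normalization gave 3 for IAb-/- against B6, and spike-in scaling, chosen after seeing the data, gave 2 for IAb-/- against B6 and 7 for CIITA-/- against IAb-/-. Leaving out 1 array gave 0 to 0, 0 to 1 and 0 to 1. The median log2 difference of the 10 tested probe sets for IAb-/- against B6 was 0.36. The number of them tested changed with the setting, so the medians are not all over the same probe sets. The median was 0.29 over 11 probe sets without the filter and 0.26 over 10 with spike-in scaling. Without 1 array it ran between 0.36 and 0.72, the highest over 9 probe sets without IAb-/- replicate 2. Without B6 replicate 2 it was 0.57, also over 9, and without B6 replicate 3 it was 0.54 over 10. In that comparison 3 of the 10 differences changed sign without IAb-/- replicate 3, and for CIITA-/- against B6 5 of 9 did in the 9-array replicate block. The cause was not tested. The planned floor at the 15th percentile could not be run, since that percentile is below 0 (-124.2) and has no log2. The 2 arrays per group restrict what these data can show for every gene. So do signals near the noise limit for Il1a, Tnfaip2, Tnfaip3 and Cxcl1, and signals within noise throughout for Il1b, Tnf and Ptx3.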
